A study of Mus musculus with 16 samples.

Results

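Clock output genes carry the daily rhythm of the circadian clock into the physiology of the liver. The 10 genes described here are Dbp, Tef, Hlf, Nfil3, Ciart, Bhlhe40, Bhlhe41, Usp2, Alas1 and Wee1. They were taken by their symbols out of the 47719 genes of the deposited counts, and each was set against Arntl in every library. All 10 were among the 15684 genes that passed a filter on low counts. RNA came from the livers of wild type C57BL/6 male mice, labelled as 1 month (3 to 4 weeks in another label) or 6 months old, and each of the 16 libraries pooled equal RNA from 3 mice. At each age the groups were untreated controls (2 libraries) and mice killed on day 2 or day 6 (3 libraries each) after 1 intraperitoneal injection of diethylnitrosamine (DEN), an alkylating carcinogen that damages hepatocyte DNA, at 25 mg/kg by the labels. No group carried a transgene or a deleted gene, and the sources used here do not give the hour at which the tissue was taken. Total counts per library ran from 19039330 to 34459774.

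In the mammalian clock, the product of Arntl (BMAL1) pairs with CLOCK or NPAS2, binds E-box sequences and drives the Per, Cry and Nr1d genes, whose products feed back on it, as well as many output genes. DBP, TEF and HLF are transcription factors of the PAR bZIP family that bind D-box sequences and, in liver, control enzymes of drug and bile acid metabolism, and NFIL3 binds the same sequences as a repressor. In mouse liver the RNA of Arntl and that of E-box driven genes such as Dbp peak at opposite times of the day, while Nfil3 peaks near Arntl.

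The promoter sequences of the members were looked up to show which carry the motifs of these factors. RefSeq windows of 300 bases on GRCm38.p6, from 250 bases before to 50 after the start of a gene, were matched by symbol for 8 of the 10 members in 10 windows, and Bhlhe40 and Wee1 were not matched. The E-box CACGTG was found in the windows of 3 members, Tef, Ciart and Bhlhe41, and in 7.15% of all 32851 windows. The motif TAGGTCA, bound by the REV-ERB receptors and searched on both strands, was found in the window of Nfil3, in 1 of the 2 windows of Arntl (after the start) and in 2.61% of all windows. The variant CACGTT and the D-box forms TTATGTAA and TTACGTAA, also searched on both strands, were in no window of a member, and were in 4.68%, 0.938% and 0.119% of all windows. The first window of Tef holds CACGTG 127 bases before the start, inside an annotated exon, and is not printed. The other stretches of these 4 members that hold the motifs are printed below from 5′ to 3′ on the strand of the gene, with the motif in capitals. Those of Ciart, Bhlhe41 and Tef hold no annotated exon base, and that of Tef lies before its second start inside the gene. That of Nfil3 lies within the annotated bounds of the gene, at their 5′ end, and was not chosen to be free of exon bases. In Nfil3 the motif is TAGGTCA on the other strand.
Ciart, chr3:95882252-95882478, minus strand: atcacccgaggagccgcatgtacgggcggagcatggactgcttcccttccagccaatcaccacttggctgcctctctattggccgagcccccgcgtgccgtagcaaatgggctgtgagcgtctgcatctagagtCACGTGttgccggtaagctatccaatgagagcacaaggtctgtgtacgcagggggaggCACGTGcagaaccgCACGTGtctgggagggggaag
Bhlhe41, chr6:145865559-145865670, minus strand: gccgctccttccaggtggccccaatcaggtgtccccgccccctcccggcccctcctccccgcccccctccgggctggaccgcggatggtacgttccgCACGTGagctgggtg
Tef, chr15:81811164-81811413, plus strand: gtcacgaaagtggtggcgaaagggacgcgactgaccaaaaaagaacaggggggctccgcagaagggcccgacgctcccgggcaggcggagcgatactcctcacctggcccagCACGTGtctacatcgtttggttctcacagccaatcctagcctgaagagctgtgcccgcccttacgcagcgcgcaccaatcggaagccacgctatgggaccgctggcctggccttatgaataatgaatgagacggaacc
Nfil3, chr13:52981040-52981069, minus strand: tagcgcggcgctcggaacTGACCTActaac
The first base of CACGTG lay 116, 58 and 44 bases before the start of Ciart, 153 bases before that of Bhlhe41 and 138 bases before the second start of Tef. The windows of Dbp, Hlf, Usp2 and Alas1 held none of the motifs. In these libraries those members ran in the same direction as Ciart, Tef and Bhlhe41, opposite to Nfil3. A match is a description of these letters and no evidence of binding.

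Arntl (ENSMUSG00000055116, chr7:113207465-113314122, plus strand), against which the members were set, differed widely between libraries of the same group. Levels are given as CPM, counts scaled per total library size after TMM scaling, in the order of the replicate numbers, and gene positions are those of GRCm38. At 1 month, Arntl was 0.805 and 31 CPM in the controls, 1.15, 0.839 and 35.2 CPM on day 2 and 4.61, 37.8 and 10.7 CPM on day 6. At 6 months, Arntl was 10.4 and 10.9 CPM in the controls, 1.22, 4.93 and 22.4 CPM on day 2 and 1.15, 12.9 and 16.2 CPM on day 6. Arntl was at or under 1.22 CPM in 5 libraries and above 30 CPM in 3, all 3 of 1-month-old mice and 1 from each group. These 3 libraries, 1-month control replicate 2, day 2 replicate 3 and day 6 replicate 2, also had the lowest shares of mitochondrial counts, at 2.39%, 3.52% and 2.18%, against 3.82% to 5.28% in the others. The slopes on Arntl of the members and gene lists, and the correlations of the members, are therefore also given without them. Hepatocyte markers (Ttr, Apoa1, Apob, Tat, Cps1, Ass1 and Hnf4a) summed to between 25758 and 40859 CPM per library, with no marker at 0. In pooled tissue, fewer cells of a type and less RNA per cell cannot be told apart.

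Dbp, the founding PAR bZIP activator (ENSMUSG00000059824, chr7:45705247-45710203, plus strand), had the widest range of the members. At 1 month, Dbp was 71.2 and 1.87 CPM in the controls, 128, 89.9 and 0.871 CPM on day 2 and 28.1, 0.376 and 58.5 CPM on day 6. At 6 months, Dbp was 25.8 and 46.5 CPM in the controls, 54.7, 77.6 and 6.24 CPM on day 2 and 80.3, 39.7 and 14.3 CPM on day 6. The highest level, in 1-month day 2 replicate 1, was 339.6 times the lowest, in 1-month day 6 replicate 2, where 10 reads were counted. The 3 libraries with Arntl above 30 CPM were the 3 lowest in Dbp, and each shared its group with libraries at 28.1 CPM or more. Of the annotated exon bases of Dbp, 18% overlap Sphk2 on the other strand, and the sources used here do not say whether counting used strand.

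Tef (ENSMUSG00000022389, chr15:81802421-81826861, plus strand), a related activator, varied over a narrower range. At 1 month, Tef was 269 and 69.7 CPM in the controls, 309, 223 and 37.3 CPM on day 2 and 218, 31.2 and 178 CPM on day 6. At 6 months, Tef was 122 and 151 CPM in the controls, 267, 240.5 and 89.6 CPM on day 2 and 299, 145 and 88.8 CPM on day 6. The highest and lowest libraries were the same as for Dbp and differed 9.89-fold. Hlf (ENSMUSG00000003949, chr11:90336536-90390895, minus strand), the third activator of the family, had the narrowest range of the members. At 1 month, Hlf was 80.4 and 44.9 CPM in the controls, 87.3, 58 and 37.3 CPM on day 2 and 86.1, 33.8 and 55.2 CPM on day 6. At 6 months, Hlf was 46.7 and 59.3 CPM in the controls, 79.6, 54.2 and 38.6 CPM on day 2 and 71.1, 50.4 and 31.8 CPM on day 6. Its highest level was 2.75 times its lowest, and the lowest was in 6-month day 6 replicate 3.

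Nfil3 (ENSMUSG00000056749, chr13:52967209-52981073, minus strand), the repressor that competes for the same D-box, ran the other way. At 1 month, Nfil3 was 12.4 and 57.4 CPM in the controls, 10.2, 9.66 and 46.7 CPM on day 2 and 31.6, 69.7 and 25.7 CPM on day 6. At 6 months, Nfil3 was 30.5 and 24.1 CPM in the controls, 11.4, 15 and 34.5 CPM on day 2 and 11.4, 23.9 and 35.3 CPM on day 6. It was highest in the 3 libraries in which Dbp was lowest, and it was lowest, at 9.66 CPM, in 1-month day 2 replicate 2, where Dbp was 89.9 CPM.

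Ciart (ENSMUSG00000038550, chr3:95878503-95882251, minus strand) encodes a repressor of CLOCK and BMAL1 that is itself driven through E-boxes. At 1 month, Ciart was 25.4 and 1.53 CPM in the controls, 27.1, 13.7 and 0.654 CPM on day 2 and 24.8, 0.413 and 15.2 CPM on day 6. At 6 months, Ciart was 5.46 and 7.28 CPM in the controls, 12.1, 8.77 and 0.597 CPM on day 2 and 17.8, 6.81 and 1.46 CPM on day 6. Its levels spanned 65.5-fold, with 11 reads in the lowest library, and 3 libraries were under 1 CPM. Another 2, 6-month day 6 replicate 3 and 1-month control replicate 2, were at 1.46 and 1.53 CPM. The 3 E-boxes printed above made it the member with the most matches.

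Bhlhe40 (ENSMUSG00000030103, chr6:108660629-108666925, plus strand) and Bhlhe41 (ENSMUSG00000030256, chr6:145858243-145865558, minus strand) encode DEC1 and DEC2, repressors that bind E-boxes. At 1 month, Bhlhe40 was 118 and 108 CPM in the controls, 210.2, 123 and 86 CPM on day 2 and 184, 46.6 and 146 CPM on day 6. At 6 months, Bhlhe40 was 118 and 155 CPM in the controls, 241, 261 and 111 CPM on day 2 and 300.1, 201 and 140.3 CPM on day 6. It was lowest in 1-month day 6 replicate 2 and highest in 6-month day 6 replicate 1. At 1 month, Bhlhe41 was 1.15 and 0.272 CPM in the controls, 2.44, 0.985 and 0.174 CPM on day 2 and 0.672, 0.113 and 1.26 CPM on day 6. At 6 months, Bhlhe41 was 2.43 and 5.43 CPM in the controls, 6.07, 8.10 and 1.33 CPM on day 2 and 7.52, 5.09 and 2.26 CPM on day 6. The counts behind these levels of Bhlhe41 were small at 1 month, from 3 to 53 reads, and were 40 to 196 reads at 6 months. The ages overlapped through 3 libraries of 6-month-old mice, at 1.33, 2.26 and 2.43 CPM, which were under the highest 1-month library at 2.44 CPM. Of the annotated exon bases of Bhlhe41, 19% overlap Gm43909 on the other strand.

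Usp2 (ENSMUSG00000032010, chr9:44067021-44095627, plus strand), a ubiquitin protease whose targets include clock proteins, had a wide range as well. At 1 month, Usp2 was 87.5 and 6.32 CPM in the controls, 78.8, 59.4 and 4.27 CPM on day 2 and 87.3, 3.65 and 46.4 CPM on day 6. At 6 months, Usp2 was 11.2 and 23.3 CPM in the controls, 53.6, 33.7 and 6.57 CPM on day 2 and 77.1, 17.2 and 6.58 CPM on day 6. The extremes differed 24-fold, and the lowest library was again 1-month day 6 replicate 2.

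Alas1 (ENSMUSG00000032786, chr9:106233455-106248126, minus strand) encodes the rate-limiting enzyme of heme synthesis in liver, which supplies the cytochromes P450. At 1 month, Alas1 was 1227 and 454 CPM in the controls, 720.0, 1069.6 and 243 CPM on day 2 and 909, 253 and 751 CPM on day 6. At 6 months, Alas1 was 287 and 372 CPM in the controls, 747, 304 and 571 CPM on day 2 and 1081, 227 and 331 CPM on day 6. The extremes differed 5.40-fold, and the lowest library was 6-month day 6 replicate 2, where Arntl was 12.9 CPM.

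Wee1 (ENSMUSG00000031016, chr7:110122350-110142112, plus strand) encodes a kinase that holds back entry into mitosis and is under clock control in regenerating liver. At 1 month, Wee1 was 11.5 and 1.84 CPM in the controls, 18.9, 13.8 and 1.57 CPM on day 2 and 12.1, 1.99 and 8.53 CPM on day 6. At 6 months, Wee1 was 3.92 and 6.63 CPM in the controls, 13.5, 11.7 and 2.06 CPM on day 2 and 17.2, 5.40 and 3.45 CPM on day 6. Its levels spanned 12-fold, and the 3 libraries with Arntl above 30 CPM were its 3 lowest.

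**Figure D1:**
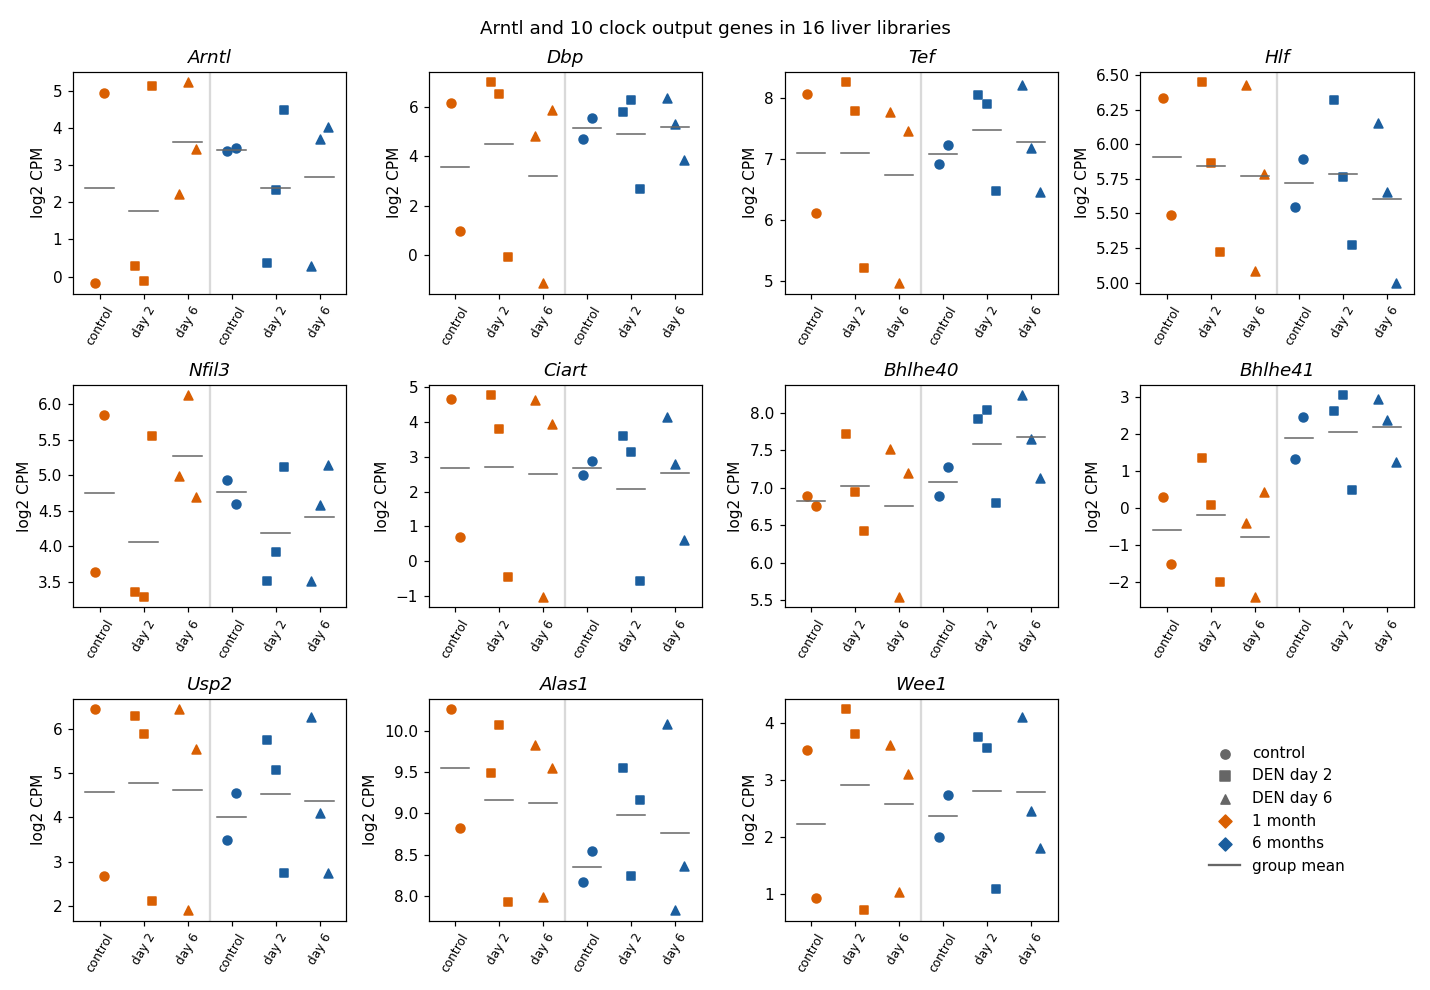
Log2 CPM (prior count 2) of Arntl and the 10 clock output genes, 1 point per library, by group on the x axis, with the group mean as a line. In each 1-month group the library with the highest Arntl has the lowest Dbp, Tef, Hlf, Ciart, Bhlhe40, Bhlhe41, Usp2, Alas1 and Wee1 and the highest Nfil3.

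The spread between libraries of the same group was larger for the members than for most genes. The SD of log2 CPM within groups was 2.91 for Dbp, 2.44 for Ciart, 2.03 for Usp2, 1.48 for Wee1 and 1.32 for Bhlhe41. For Tef it was 1.23, for Nfil3 0.99, for Alas1 0.96, for Bhlhe40 0.69 and for Hlf 0.57. The median over the members was 1.27, against 0.27 over all 15684 genes tested, of which 95% were under 0.74. Hlf and Bhlhe40 were therefore inside the range of most genes, with 87.5% and 93.1% of genes below them, and the other 8 members were above at least 98.1% of genes. Among the core clock genes, Npas2 (2.87), Arntl (2.28) and Per3 (1.95) had SDs as large as those of the leading members, and Rora (0.27) was at the median of all genes.

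**Figure D2:**
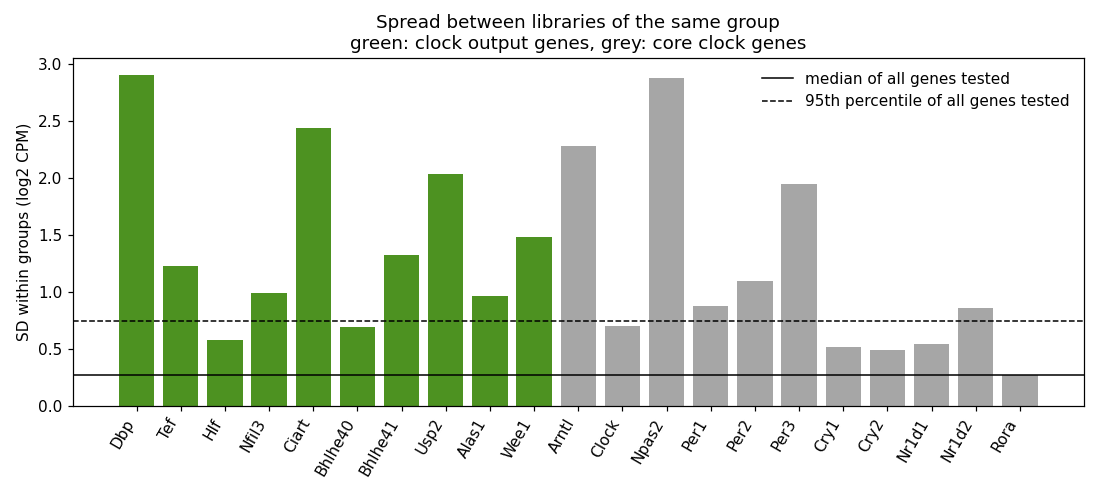
SD of log2 CPM within the 6 groups (10 residual degrees of freedom) for the clock output genes in green and the core clock genes in grey, with the median (0.27) and 95th percentile (0.74) of all genes tested as lines. Dbp has the highest bar of the clock output genes, at 2.91, and Hlf the lowest, at 0.57.

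The relation of each member to Arntl was then tested across the 16 libraries, with the groups held fixed. The slope is the log2 change of a gene per 1 log2 unit of Arntl in edgeR's quasi-likelihood model with a term for each group. Of the 10 members, 9 were lower with higher Arntl at an adjusted p under 0.1, against 9.47% of the 15683 genes tested, and 1, Nfil3, was higher, against 11.3%. The members were chosen knowing that clock genes differed between these libraries, so this count is not independent of the choice.

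Among the PAR bZIP factors, the slope was -1.0 ± 0.21 (SE, adjusted p = 0.00701) for Dbp, -0.48 ± 0.07 (adjusted p = 0.000453) for Tef and -0.22 ± 0.04 (adjusted p = 0.00145) for Hlf. For Nfil3 it was 0.42 ± 0.03 (adjusted p = 7.27e-06). Dbp thus halved, on the fitted line, for each doubling of Arntl, while Hlf fell far less. Among the repressors of the clock loop, the slope was -0.89 ± 0.13 (adjusted p = 0.000999) for Ciart, -0.20 ± 0.06 (adjusted p = 0.0418) for Bhlhe40 and -0.46 ± 0.12 (adjusted p = 0.0215) for Bhlhe41.

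Among the output enzymes, the slope was -0.82 ± 0.09 (adjusted p = 9.01e-05) for Usp2, -0.34 ± 0.06 (adjusted p = 0.00396) for Alas1 and -0.62 ± 0.06 (adjusted p = 6.27e-05) for Wee1. The scatter of the members against Arntl was not a straight line at the low end, since Dbp lay between 54.7 and 128 CPM in the 5 libraries with Arntl at or under 1.22 CPM and still reached 77.6 CPM at an Arntl of 4.93 CPM. Sphk2, which overlaps Dbp, had a slope of -0.10 ± 0.04 (adjusted p = 0.0750), and Gm43909, which overlaps Bhlhe41, one of -0.26 ± 0.17 (adjusted p = 0.328).

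**Figure D3:**
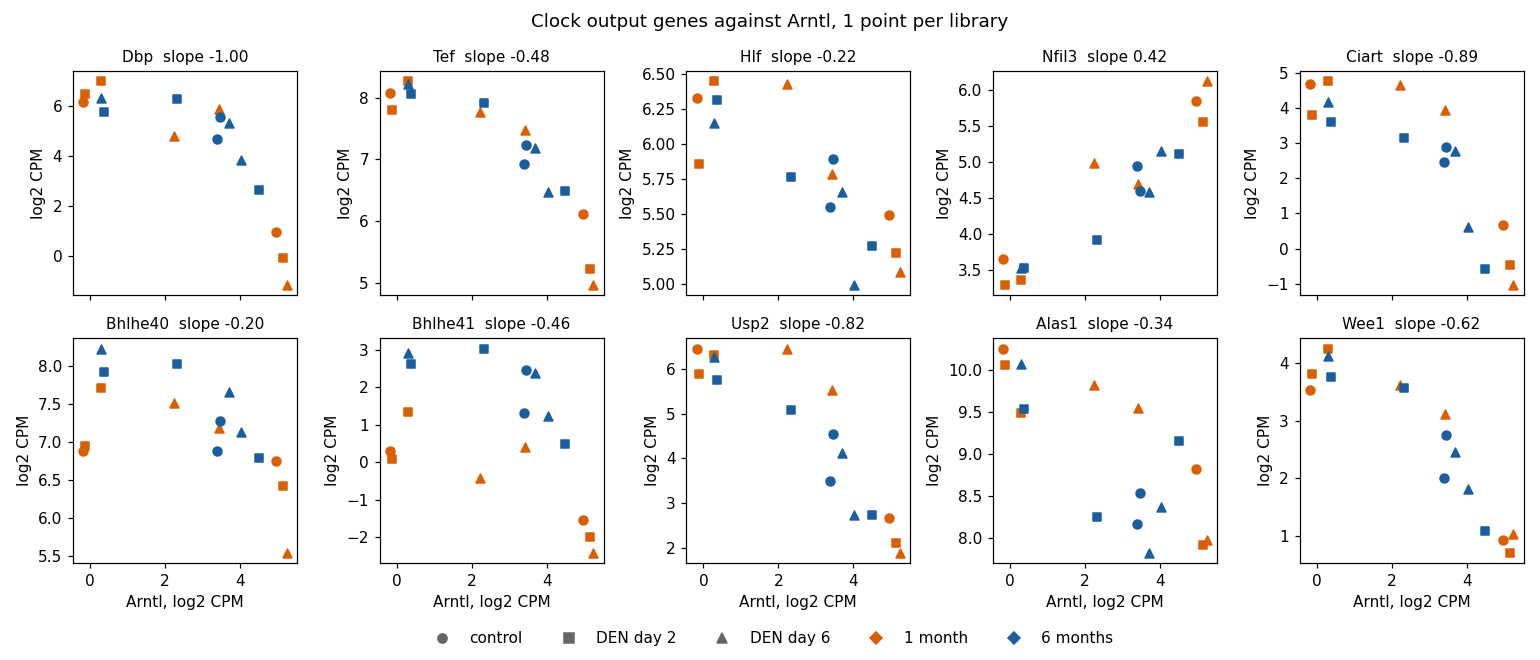
Log2 CPM of each clock output gene against log2 CPM of Arntl, 1 point per library, with orange for 1 month, blue for 6 months and the marker for the treatment, and the fitted slope in each title. Of the 10 panels, 9 fall from left to right and Nfil3 rises, with a slope of 0.42.

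Without the 3 libraries of lowest mitochondrial share, the number of members lower with higher Arntl was 3 (Tef, Usp2 and Wee1) in place of 9, and Nfil3 was still higher, while 136 of 16057 genes passed in either direction. Over both ages together, all 10 slopes kept their sign there, at -0.49 (adjusted p = 0.40) for Dbp, -0.73 (adjusted p = 0.119) for Ciart, -0.25 (adjusted p = 0.127) for Hlf, -0.25 (adjusted p = 0.237) for Bhlhe40, -0.35 (adjusted p = 0.469) for Bhlhe41 and -0.30 (adjusted p = 0.279) for Alas1. For the members that passed, the slopes were -0.38 for Tef, -0.75 for Usp2, -0.58 for Wee1 and 0.37 for Nfil3. The slope of Dbp was the one that moved by over 1.5 times. The 3 libraries left out also have the highest Arntl of all, so their removal narrows the range of Arntl. It therefore cannot tell the mitochondrial share from high Arntl, and the part of the mitochondrial share in these slopes was not tested.

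All 10 slopes had the same sign at both ages. For Dbp the slope was -1.22 ± 0.24 at 1 month and -0.58 ± 0.28 at 6 months, a difference of 0.65 ± 0.38 (unadjusted p = 0.113, adjusted p = 0.690, edgeR). For the other members it differed between the ages by -0.08 (Bhlhe40) to 0.21 (Ciart). No member and no gene passed in the test of this difference (0%) by edgeR, while 1314 genes had an unadjusted p under 0.05 and 166 genes, no member among them, passed by DESeq2. Without the filter on low counts Dbp passed (adjusted p = 0.0907), where 223 of 28128 genes passed. Without the 3 libraries of lowest mitochondrial share, all of 1-month-old mice, the 1-month slope was 0.92 ± 0.76 for Dbp, 1.09 ± 0.88 for Bhlhe41 and -0.20 ± 0.22 for Nfil3, each with the other sign than with them, while the 6-month slopes were -0.58 ± 0.19, -0.40 ± 0.16 and 0.39 ± 0.05. The other 7 members had 1-month slopes below 0 there, from -0.04 ± 0.36 (Bhlhe40) to -0.56 ± 0.50 (Usp2). These 1-month slopes rest on narrow ranges of Arntl within groups. Log2 CPM of Arntl was 0.29 and -0.13 in the day 2 libraries left and 2.23 and 3.42 in those of day 6. Of the 1-month controls only replicate 1 was left. No member and no gene passed in the test of the difference there, and Nfil3 had the smallest p of the members (unadjusted p = 0.0264, adjusted p = 0.821, edgeR).

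The same relation was also computed without a count model, as the correlation of log2 CPM with Arntl after each library was centered on its group mean. Pearson's r was -0.86 for Dbp, -0.91 for Tef, -0.87 for Hlf, -0.90 for Ciart, -0.69 for Bhlhe40, -0.81 for Bhlhe41, -0.94 for Usp2, -0.84 for Alas1 and -0.95 for Wee1, and 0.97 for Nfil3. Spearman's rho was -0.84, -0.89, -0.79, -0.89, -0.67, -0.78, -0.94, -0.85, -0.93 and 0.98 in the same order. By a two-sided exact permutation test within groups (5184 permutations, smallest possible p = 0.000193), p was 0.000772 to 0.00849 for r and 0.00154 to 0.0100 for rho. Adjusted over 15683 genes, the exact p was 0.0422 to 0.0811 for r and 0.0526 to 0.0891 for rho, so that all 10 members passed, against 13.1% of genes for r. Without the 2 libraries farthest from the median of Arntl, 1-month control replicate 1 and 1-month day 2 replicate 2, r was -0.79 (Alas1) to -0.95 (Wee1) and 0.95 for Nfil3.

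Within an age, with 8 libraries and a smallest possible exact p of 0.0139, r was -0.61 (Bhlhe40) to -0.97 (Wee1) at 1 month and -0.67 (Alas1) to -0.93 (Usp2) at 6 months. For Nfil3, r was 0.97 at 1 month (exact permutation p = 0.0417) and 0.95 at 6 months (exact permutation p = 0.0278). For Dbp, r was -0.91 at 1 month (exact permutation p = 0.0556) and -0.79 at 6 months (exact permutation p = 0.167). The count of members that passed the adjusted exact test depended on single libraries. None passed without 1-month day 2 replicate 3, without 1-month day 6 replicate 2 or without 6-month day 6 replicate 1. Without 1-month control replicate 1, without 1-month control replicate 2 or without 6-month day 6 replicate 3, 6 passed. Each removal also left fewer permutations (1728 or 2592), which raised the smallest possible exact p to 0.000579 or 0.000386. Without the 3 libraries of lowest mitochondrial share 288 permutations were left, with a smallest possible exact p of 0.00347. There r lay between -0.59 and -0.92 and was 0.90 for Nfil3. Over 18 settings, Bhlhe41 did not pass in 14, Alas1 in 13, Bhlhe40 in 11 and Dbp in 10. The other 6 members each did not pass in 4. These settings left out each library or the 3 libraries, or used a lower prior count. The share of all genes that passed was not counted in them, so the losses cannot be read as particular to the members.

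The members were also close to each other over the 16 centered libraries. With Dbp, r was 0.98 for Tef, 0.96 for Ciart, 0.95 for Usp2, 0.94 for Bhlhe41, 0.94 for Wee1, 0.83 for Hlf, 0.83 for Bhlhe40, 0.73 for Alas1 and -0.93 for Nfil3. Alas1 was the least like the rest, with an r of 0.59 with Bhlhe40 and 0.60 with Bhlhe41. Dbp was also set against 11776 genes with a mean of 1 CPM or more. Members, core clock genes and genes with no symbol or a Gm or Rik symbol were left out of this ranking. Within it, the genes most like Dbp were Cyp2a5 (r = 0.97), Azin2 (0.96), Ugp2 (0.96), Ric8 (0.94) and Slc5a6 (0.94). Those most opposite were Litaf (-0.97), Canx (-0.97), Caprin1 (-0.97), Ubqln1 (-0.96) and Gpat2 (-0.96). These correlations are descriptions, since the points share their libraries.

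Genes that the PAR bZIP factors are known to drive in liver were mostly lower with higher Arntl, as Dbp was. Of the 6 on the list, 5 were lower with higher Arntl and 1 was higher, beside 9.47% of all genes lower and 11.3% higher. Without the 3 libraries of lowest mitochondrial share 4 were lower, Cyp7a1 (slope -0.53, adjusted p = 0.103) and Cyp2b10 (0.24, adjusted p = 0.686) did not pass, and 0.43% of all genes were lower. With all libraries, the values were as follows. The slope was -0.58 for Cyp2a4 (adjusted p = 4.90e-05) and -0.47 for Cyp2a5 (adjusted p = 0.000392), close copies that may share reads. Cyp2a4 was low at 6 months, at 0.467 to 7.26 CPM (10 to 232 reads), against 41.1 to 542 CPM at 1 month. Cyp7a1, the rate-limiting enzyme of bile acid synthesis, had a slope of -0.58 (adjusted p = 0.000148). Por, the electron donor of the cytochromes P450, had one of -0.33 (adjusted p = 2.97e-05), and Nr1i3, the xenobiotic receptor CAR, one of -0.17 (adjusted p = 0.0324). Cyp2b10, a target of that receptor, went the other way at 0.22 (adjusted p = 0.0693).

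Of 10 core clock genes other than Arntl, 5 were lower with higher Arntl, 2 were higher and 3 did not pass. Of all genes, 9.47% were lower and 11.3% higher. Without the 3 libraries of lowest mitochondrial share 2 were lower (Per1, -0.34, and Per2, -0.40), 2 were higher (Npas2, 1.22, and Clock, 0.27) and 6 did not pass. There the adjusted p was 0.127 for Per3, 0.181 for Nr1d2 and 0.440 for Cry2. With all libraries, Npas2 and Clock, the partners of BMAL1, were higher, with slopes of 1.31 and 0.29. The 5 lower genes were Per3 (-0.76), Per2 (-0.43), Per1 (-0.33), Nr1d2 (-0.32) and Cry2 (-0.17). Nr1d1, which encodes REV-ERBα, had a slope of 0.01 ± 0.07 (adjusted p = 0.972), unlike its paralog Nr1d2, and Cry1 and Rora had slopes of 0.10 ± 0.06 (adjusted p = 0.261) and 0.03 ± 0.03 (adjusted p = 0.501).

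Other genes in the pathways of Alas1 and Wee1 were set beside them. Of 8 other genes of heme synthesis and breakdown, Alad was lower (slope -0.07, adjusted p = 0.0414), Uros was higher (0.10, adjusted p = 0.0128) and 6 did not pass, beside the 9.47% of all genes lower and 11.3% higher, and against a slope of -0.34 for Alas1. Of 8 genes of entry into mitosis, among them Cdk1, Ccnb1 and Cdc25b, none passed or had an unadjusted p under 0.05 by edgeR, and their slopes ran from -0.07 to 0.11, against -0.62 for Wee1. Without the 3 libraries of lowest mitochondrial share no gene of either list passed, and Alad (adjusted p = 0.402) and Uros (adjusted p = 0.418) were those with an unadjusted p under 0.05 by edgeR. The median slope was -0.47 over the members, -0.08 over the core clock genes, -0.40 over the PAR bZIP targets, -0.02 over the heme genes, 0.05 over the mitosis genes and 0.00192 over all genes tested.

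Of the marker lists of liver cells, no gene of the hepatocyte (7), macrophage (5), stellate cell (4) or sinusoidal endothelium (4) list passed in the Arntl slope by edgeR, and Cps1 and Lyve1 were those with an unadjusted p under 0.05 (0.0304 and 0.0417). Of 5 cholangiocyte markers, Sox9 (0.32), Krt7 (0.31) and Krt19 (0.27) were higher with higher Arntl, and of 5 leukocyte markers S100a8 was (0.17, adjusted p = 0.0962). Without the 3 libraries of lowest mitochondrial share no marker passed by edgeR, with adjusted p at 0.442 for Sox9, 0.669 for Krt7, 0.579 for Krt19 and 0.298 for S100a8, while 4 of 5 macrophage markers (Adgre1, Clec4f, Cd68 and Vsig4), 3 of 5 leukocyte markers (S100a8, S100a9 and Ptprc) and Lrat of the stellate cell list had slopes above 0 at an unadjusted p under 0.05. The summed cholangiocyte markers were 39.4 and 65.8 CPM in the 1-month controls, 36.5 to 62.0 on day 2 and 46.0 to 67.9 on day 6, and 52.5 and 70.9 CPM in the 6-month controls, 55.3 to 83.2 on day 2 and 47.6 to 76.4 on day 6. The summed leukocyte markers were 17 and 23.6 CPM in the 1-month controls, 17.6 to 22.1 on day 2 and 19.2 to 20.9 on day 6, and 35.9 and 51.6 CPM in the 6-month controls, 22 to 55.9 on day 2 and 27.1 to 46.4 on day 6. No marker was at 0 in any library, and the part of these cells in the slopes of the members was not tested.

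**Figure D4:**
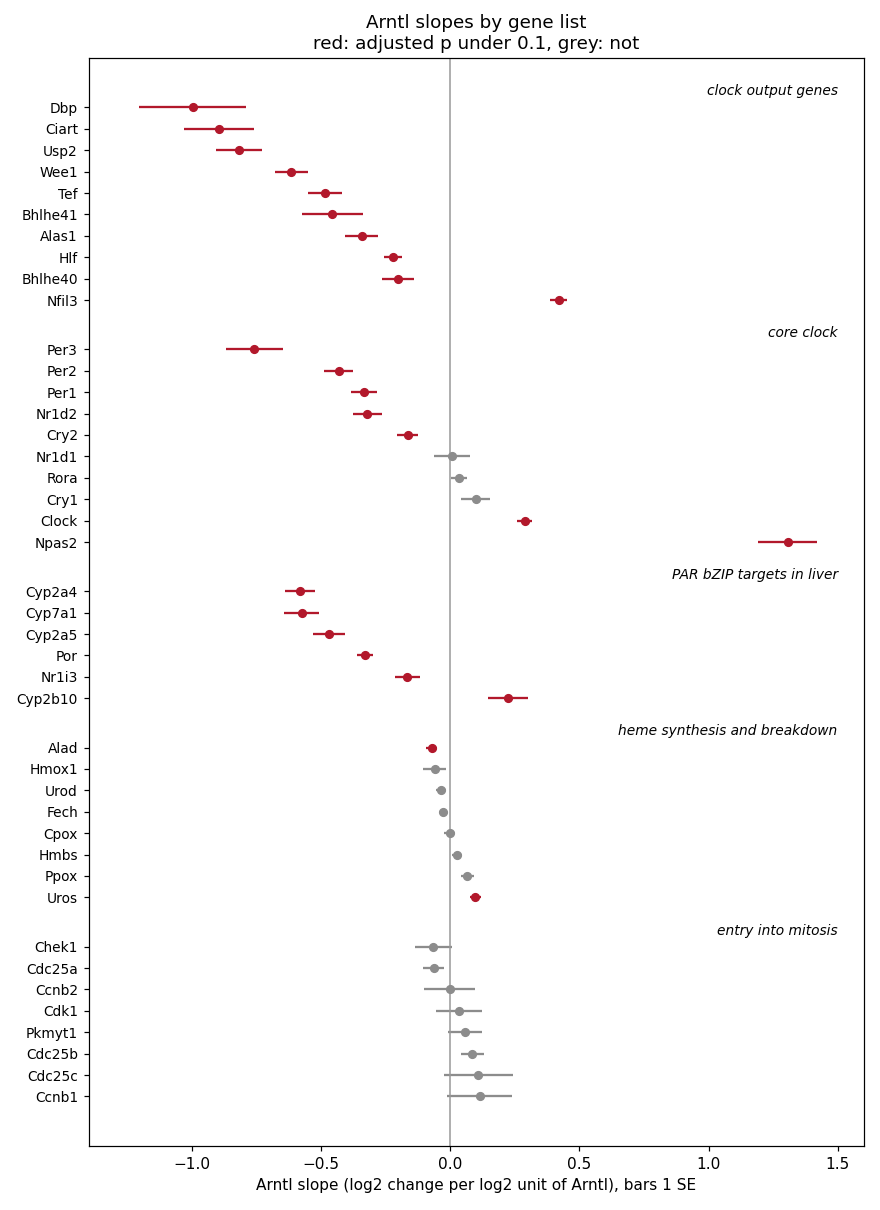
Slope on Arntl with 1 SE for the clock output genes, the core clock genes other than Arntl, PAR bZIP targets, heme genes and mitosis genes, in red where the adjusted p was under 0.1. Clock output genes run from -1.0 (Dbp) to 0.42 (Nfil3), and no gene of the mitosis list is red.

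The study asked how the liver responds to DEN at the 2 ages, so the members were compared between the groups as well. None of the 10 passed in any of the 4 comparisons of a day with the controls of its age. At 1 month, 0.0191% of all genes passed on day 2 and 0% on day 6, and at 6 months 0.319% passed on day 2 and 0.249% on day 6. No member had an unadjusted p under 0.05 in these comparisons by edgeR, and none passed by DESeq2. With log2 CPM of Arntl as a covariate none passed either, but the values moved, and 3 and 7 of the 10 members changed sign on days 2 and 6 at 1 month, and 7 and 6 at 6 months. On day 6 at 1 month Wee1 was then at 1.25 ± 0.41 in place of 0.18 (edgeR, unadjusted p = 0.00872, adjusted p = 0.857), Usp2 at 1.40 ± 0.54 in place of -0.04 (edgeR, unadjusted p = 0.0219, adjusted p = 0.964) and Dbp at 2.13 ± 1.14 in place of -0.33 (edgeR, adjusted p = 0.964). The member with the smallest p was Nfil3 on day 2 at 1 month (log2 fold change -0.66 ± 0.76, adjusted p = 0.865) and Alas1 on day 6 at 1 month (-0.40 ± 0.72, adjusted p = 1). At 6 months it was Bhlhe40 on both days (0.58 ± 0.52 and 0.65 ± 0.52, adjusted p = 1 for both), which lay at 0.37 without day 2 replicate 2 and 0.89 without day 2 replicate 3 for day 2, and at 0.32 without day 6 replicate 1 and 0.88 without day 6 replicate 3 for day 6. Both signs at 1 month rested on the controls, since Nfil3 was at 0.84 without 1-month control replicate 2 and Alas1 at 0.49 without 1-month control replicate 1.

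The SEs of the members in these 4 comparisons ran from 0.45 to 1.65 on the log2 scale, so that even the 1.00 of Dbp on day 2 at 1 month was smaller than its SE of 1.65. No member had groups that did not overlap, against 16.7% and 14.4% of genes on days 2 and 6 at 1 month and 21.9% and 19.5% at 6 months. In the test of a difference between the ages in the response to DEN, no member passed on day 2 (0.00638% of genes passed) or day 6 (0.0128%) by edgeR or DESeq2, and none had an unadjusted p under 0.05 by edgeR. The smallest p was that of Alas1, at a difference of 1.03 ± 1.02 (adjusted p = 0.945) and 1.13 ± 1.02 (adjusted p = 1.00). The first was 0.13 without 1-month control replicate 1 and 1.57 without 1-month control replicate 2, and the second 0.14 without 6-month day 6 replicate 1, 0.24 without 1-month control replicate 1 and 1.67 without 1-month control replicate 2. With Arntl as a covariate no member passed on either day, and 2 members changed sign on day 2 and 7 on day 6. The day 6 difference was then -1.36 ± 0.56 for Wee1, -1.72 ± 0.75 for Usp2 and -2.37 ± 1.09 for Ciart (edgeR, unadjusted p = 0.0302, 0.0378 and 0.0486, adjusted p = 0.999 for each), in place of 0.52, 0.99 and 0.43, and that of Dbp was -2.63 ± 1.48 in place of 0.64.

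Between the untreated controls of 6 and 1 month, 0 of 10 members passed, against 2.67% of genes, and none passed by DESeq2. Bhlhe41 had the smallest p and the only one under 0.05 unadjusted, with means of 3.93 ± 2.13 CPM (SD, n = 2) at 6 months and 0.711 ± 0.621 CPM (SD, n = 2) at 1 month, a log2 fold change of 2.5 ± 1.08 (edgeR, adjusted p = 0.347). It was 3.85 without 1-month control replicate 1 and 1.78 without 1-month control replicate 2. Its 2 libraries at 6 months were above both at 1 month. Alas1 was the other member whose controls did not overlap, at 287 and 372 CPM at 6 months against 1227 and 454 CPM at 1 month (log2 fold change -1.35 ± 0.80, edgeR, adjusted p = 0.560). Such groups were found for 43.1% of all genes, a larger share than the 2 of 10 members. With the log2 CPM of Arntl as a covariate, the difference of Bhlhe41 was 3.35 (adjusted p = 0.0426), that of Dbp was 2.67 (unadjusted p = 0.0441, adjusted p = 0.290, edgeR) and 6 members changed sign. With that covariate 786 of 15684 genes passed. With every gene kept that had a read in some library, the difference of Bhlhe41 was 2.51 (edgeR, adjusted p = 0.0190), and 794 of 28129 genes passed.

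After these values were seen, the ages were also compared over controls, day 2 and day 6 together. Bhlhe41 was 2.49 ± 0.55 higher on the log2 scale at 6 months (edgeR, adjusted p = 0.00738), and the other 9 members did not pass, at -0.88 (Ciart) to 0.53 (Bhlhe40). In this comparison 22.6% of all genes passed, so 1 of 10 members was below the share among all genes. With Arntl as a covariate, 4568 of 15684 genes passed in it. The difference of Bhlhe41 was 1.90 (adjusted p = 0.0366) without the 3 libraries of lowest mitochondrial share and 2.25 to 2.94 without each library in turn. With Arntl as a covariate Nfil3 (-0.34, adjusted p = 0.0568) and Bhlhe40 (0.57, adjusted p = 0.0747) passed too, and Alas1 passed without 6-month day 6 replicate 1 (-0.97, adjusted p = 0.0895) and without the 3 libraries (-1.08, adjusted p = 0.0668).

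Markers of other liver cells moved in the same comparison of the ages. The leukocyte (Cd79a, Ptprc and Cd3e) and macrophage (Cd68, Marco and Vsig4) lists had 3 of 5 markers higher at 6 months, and the stellate cell list (Dcn and Des) 2 of 4. Sinusoidal endothelium had 3 of 4 lower (Lyve1, Stab2 and Kdr), hepatocytes 2 of 7 (Apoa1 and Ttr) and cholangiocytes 1 of 5 (Krt19). Of all genes, 22.6% passed in this comparison. The median log2 fold change of the cholangiocyte list was 0.23, and its sums were 36.5 to 67.9 CPM at 1 month and 47.6 to 83.2 CPM at 6 months. The summed leukocyte markers were 17 to 23.6 CPM at 1 month and 22 to 55.9 CPM at 6 months, and those of macrophages 208 to 329 and 207 to 392 CPM. The stellate cell sums were 174 to 252 and 203 to 345 CPM, those of sinusoidal endothelium 149 to 247 and 112 to 177 CPM, and those of hepatocytes 25758 to 40859 and 27370 to 32718 CPM. The part of these cells in the difference of Bhlhe41 was not tested.

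**Figure D5:**
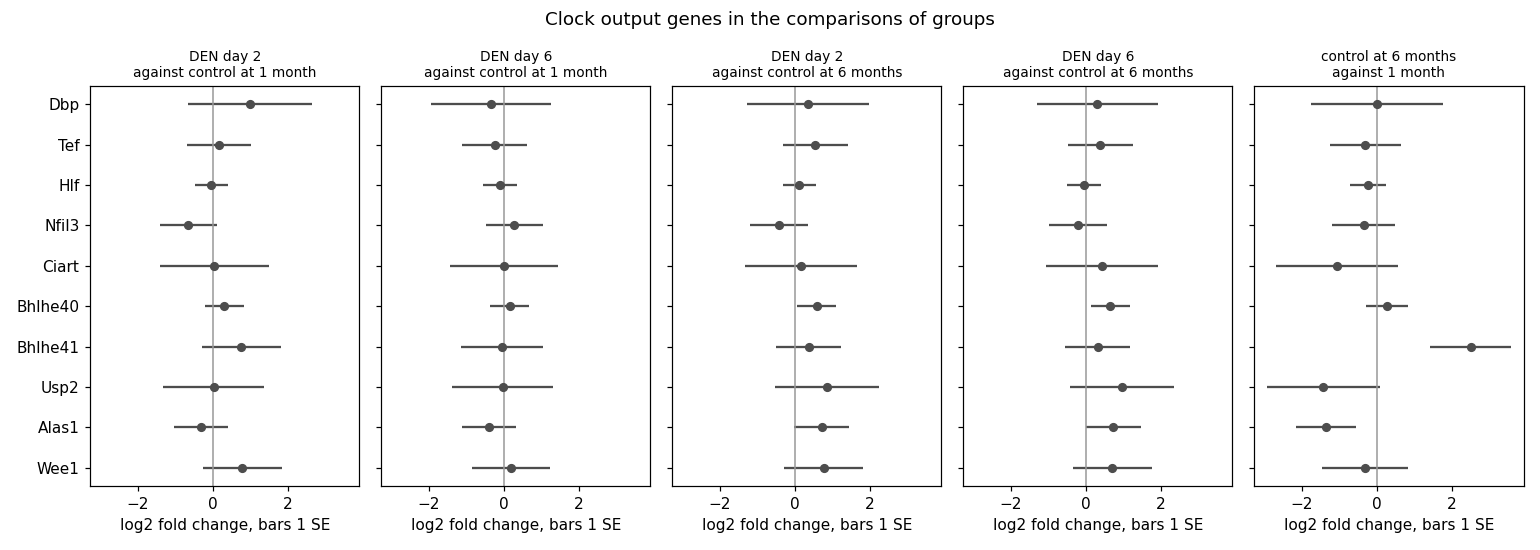
Log2 fold change with 1 SE of the clock output genes in the 4 comparisons of a day after DEN with the controls of the same age and in the comparison of the control ages. Most bars cross 0, and Bhlhe41 between the control ages lies farthest from it, at 2.5.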

How the data were processed

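RNA of 16 libraries was sequenced on an Illumina NextSeq from TruSeq libraries. TopHat2 2.0.13 mapped reads for the authors against GRCm38, and the submitters' notes also name cutadapt, Cufflinks 2.2.1, Cuffnorm and DESeq2 1.10.1. The values used are the raw counts of each gene that the authors deposited, and the sources used here name neither the counting program nor its strand setting. The 16 columns of normalized counts and the columns of the authors' fold changes and p-values were not used. Of 47729 entries, 10 were left out because they lacked a full set of counts or an Ensembl gene name. Of the 47719 genes kept, 28129 had at least 1 read in some library.

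From the counts, edgeR 4.0.16 (R 4.3.3) gave TMM factors, the filterByExpr filter and quasi-likelihood tests (glmQLFit, glmQLFTest) in 1 model of the 6 groups, with Benjamini-Hochberg adjustment over all genes tested and a threshold of 0.1. Log2 CPM had a prior count of 2. The Arntl slope added log2 CPM of Arntl to that model. Correlations used exact two-sided permutations within groups. DESeq2 1.42.0, DESeq2 size factors, no filter, a replicate block, Arntl as a covariate, other forms of the covariate and libraries left out were alternatives. The edgeR tests were also run on simulated counts with the same dispersion for every gene. Those runs do not check the tests for genes that spread as widely as the members. Controls of 2 libraries borrow their spread from all groups. Promoters came from RefSeq (GRCm38.p6) and exons from GENCODE. Genes were named by a rule: all members, the member of smallest p in each comparison and list genes that passed in the Arntl slope. The 5 genes most like and most unlike Dbp were named too, outside the members, the core clock genes and Gm or Rik symbols. The members and lists were chosen with earlier results of these data known. The labels do not say whether pools came from separate cages or days, so p-values measure the spread between pools. A further gene is not reported here.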

Additional observations from a re-analysis of the deposited data

How the results depend on the processing

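Under the alternatives, 0 members passed in the 4 comparisons of a day with controls and in both differences between the ages under all 23 settings. Between the control ages 1 member (Bhlhe41) passed with no filter on low counts (794 of 28129 genes passed) and with Arntl as a covariate (786 of 15684). Over all 3 times, 3578 of 28129 and 4568 of 15684 genes passed under these 2 settings. In the comparison over all 3 times, added after the values were seen, 3 members passed without the filter, 3 with Arntl as a covariate and 2 without the 3 libraries of lowest mitochondrial share, and 1 to 2 with each library left out. The members lower with higher Arntl numbered 3 without those 3 libraries and 7 to 9 with each library left out, with 7 without 1-month day 2 replicate 3 (Bhlhe40 and Bhlhe41 lost), and Nfil3 was higher under all 24 settings. The members whose slope differed between the ages numbered 1 (Dbp) with no filter. The correlation count was 0 without the 3 libraries and 0 to 10 with each library left out. Fewer permutations remained there, and the share of all genes that passed was not counted. The log2 fold change of Alas1 on day 6 at 1 month reversed to 0.0525 with Arntl as a covariate and to 0.49 without 1-month control replicate 1 (range -0.94 to 0.49 with each library left out), and that of Nfil3 on day 2 at 1 month to 0.84 without 1-month control replicate 2 (range -1.81 to 0.84). The causes were not tested.

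Not every pair of same-numbered libraries deviated together (correlation above 0.1 in 11 of 15 pairs for number 1, 2 of 15 for number 2 and 3 of 6 for number 3, and 8 of 16 libraries closest on average to their own number), so the numbers were not taken as pairs. With the replicate block 7 members were lower with higher Arntl, with Hlf (adjusted p = 0.115) and Bhlhe40 (adjusted p = 0.327) lost, Nfil3 was higher and 1807 genes passed in place of 3261.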
